A study of Mus musculus with 8 samples.

Results

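Called peaks in the RNA of Mdm4 were examined in 7 lists of peaks from crosslinking and immunoprecipitation (CLIP) of the RNA-binding protein Zmat3. Members were all called peaks on the minus strand, the strand of Mdm4, whose midpoint lay in the span of the gene (mm10, chromosome 1, 132986105–133030587, 44483 nt). This gave 175 of the 978429 peaks in the lists, which merged into 57 sites where peaks of any list overlapped by at least 1 nt on that strand. No called peak lay on the opposite strand of the span, with 0 in the 7 lists together. Positions are 1-based.

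The cells were mouse embryonic fibroblasts (MEFs) transformed with the adenoviral oncogene E1A and oncogenic Hras. Controls 1, 2 and 3 had the genotype Cas9+;E1A;HrasG12V and carried the negative-control guides sgNegative control EV, SPA and ACOCA, respectively. The knockout had the genotype Zmat3-/-;E1A;HrasG12V with no guide, and it was 1 line derived from knockout fibroblasts rather than from a control line. All 4 immunoprecipitates (IP) were made with the same anti-Zmat3 antibody, and each line also had an input sample, 8 samples in all. Cas9, the lentiviral guide and its selection are recorded for the controls alone, so their effects cannot be told apart from that of the genotype.

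Each of the 4 IPs had a list over input, and each control IP had a second list in which the knockout IP took the place of input, 3 in all. Each peak carried a log2 fold and a −log10 p-value computed by the authors. Over input, 129323, 153768 and 122284 peaks were called in controls 1, 2 and 3, and 167648 were called in the knockout. The lists gave no read counts, so the depth is unknown. Of the 8 fibroblast marker genes, Vim, Fn1 and Pdgfrb had called peaks over input in every IP, and Col3a1 had 1 peak in control 2. Pdgfrb had 16, 12 and 10 called peaks in controls 1 to 3 but 2 in the knockout, while Fn1 had 59 to 74 in the controls, beside 79 in the knockout. Whether this difference bears on the Mdm4 values was not tested. Col1a1, Col1a2, Thy1 and S100a4 had 0 in each. Among the 9 markers of other cell types, the epithelial gene Epcam had 9, 5 and 11 called peaks in the controls, beside 10 in the knockout, the leukocyte gene Cd68 had 1 to 3, Cdh1 had at most 1 and the other 6 had 0.

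Mdm4, also called Mdmx, encodes a relative of the ubiquitin ligase Mdm2. It binds the transactivation domain of the tumour suppressor p53 and holds it inactive, and together with Mdm2 it promotes p53 degradation. Mdm4 output is known to be set in part by alternative splicing, since skipping of an internal exon yields a short isoform and lowers the full-length protein. Zmat3, a zinc finger protein that binds RNA, is itself encoded by a p53 target gene.

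Enrichment in Mdm4 was concentrated at a pair of neighbouring sites in the middle of the gene, and both were enriched in every control IP. Enriched peaks are those whose log2 fold and −log10 p-value were both 3 or more. Over input, 7 of 25 Mdm4 peaks were enriched in control 1, 5 of 21 in control 2 and 5 of 27 in control 3. Among all called peaks of these lists 1.02%, 1.05% and 0.494% were enriched. Most of the enriched Mdm4 peaks were adjoining or nearly adjoining pieces of 1 site. Counted by site, 2 of 19, 2 of 17 and 2 of 22 Mdm4 sites held an enriched peak in controls 1 to 3. The shares over all genes are of peaks, and no share of all sites is given here for these counts. In the knockout 0 of 29 Mdm4 peaks were enriched over input, beside 0.316% of all called peaks. Against the knockout IP, 7, 5 and 5 Mdm4 peaks were enriched, beside 0.621%, 1.09% and 0.648% of all called peaks. All enriched Mdm4 peaks lay in 2 of the 57 sites, and the other 55 sites held none in any list. The enriched peaks covered 365, 359 and 363 nt in controls 1 to 3.

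**Figure D1:**
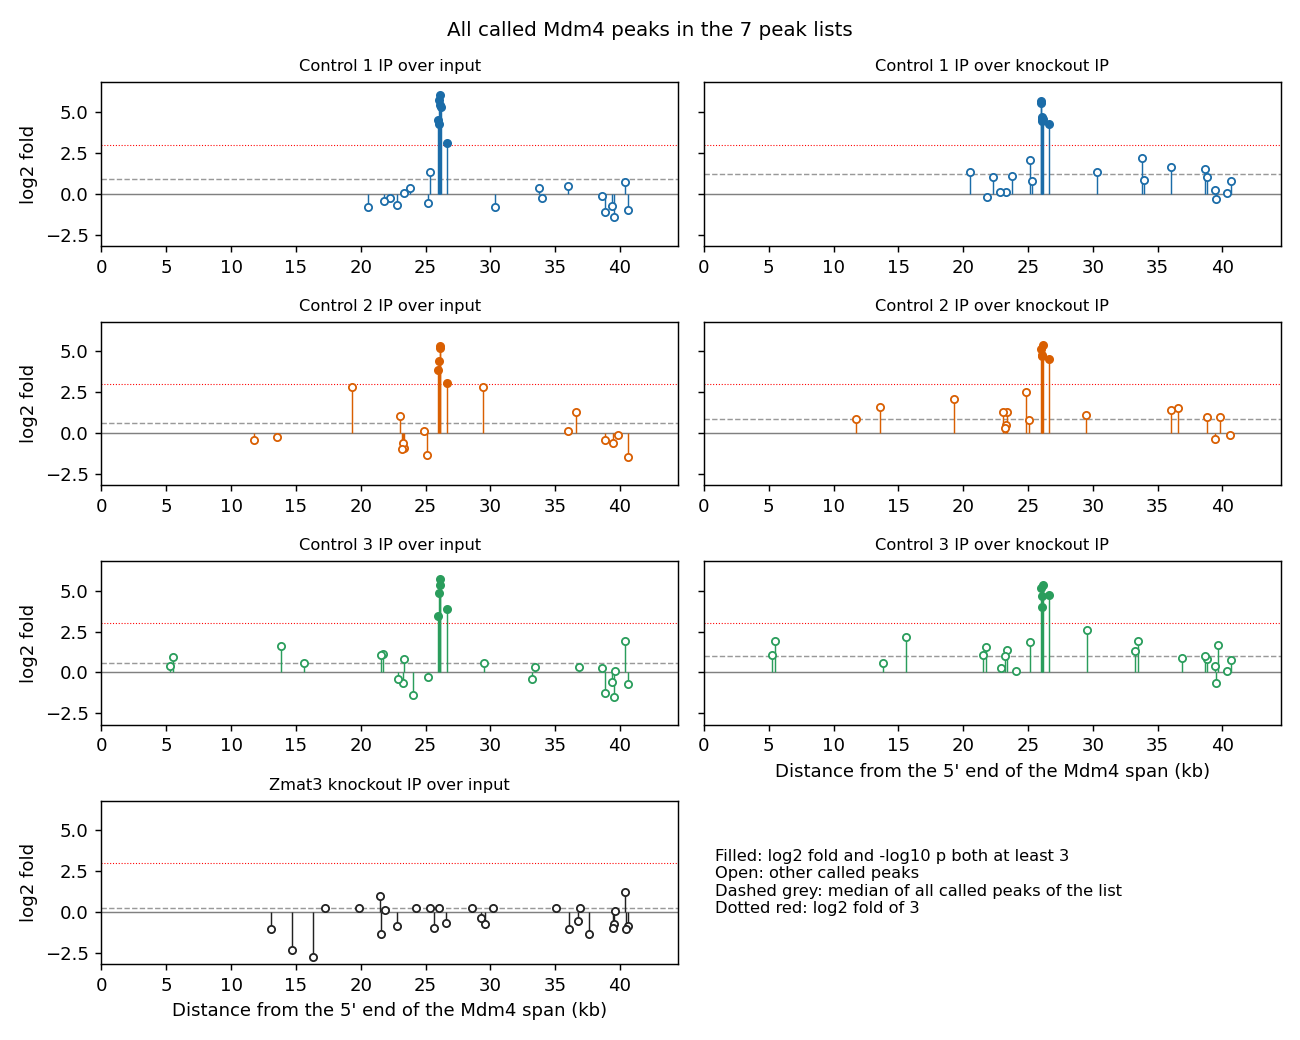
Log2 fold of every called Mdm4 peak (vertical axis) against its distance from the 5′ end of the gene span in kb (horizontal axis), with 1 panel per list. Filled points are enriched peaks, open points are other called peaks, and the dashed line is the median of all called peaks of the list. The filled points of the 6 control lists fall in 2 neighbouring sites, and the knockout panel has 0 filled points.

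The site nearer the 5′ end, called the 5′ site here, spanned 133004395–133004631 (237 nt) and began 25956 nt from the 5′ end of the gene. Its highest log2 fold over input was 6.06 in control 1, 5.32 in control 2 and 5.71 in control 3, against 0.23 in the knockout. Over the knockout IP the highest values were 5.66, 5.41 and 5.32. All 3 controls thus lay far above the knockout, whose peak at the site was 19 nt long (133004506–133004524). Over input the controls averaged 5.69 ± 0.37, and against the knockout IP 5.46 ± 0.18 (SD, n = 3). The control mean lay 5.46 above the knockout over input, or 4.65 with length-weighted means and 4.46 with the longest peak of each library. The exact permutation test of this difference (two-sided, 3 libraries against 1) gave p = 0.25, the smallest it can give, so it cannot pass 0.05. The site was also singled out by high control folds over input and over this knockout IP, which favours that outcome, so the test adds no support. The 3 lists over the knockout IP share 1 knockout library, and their agreement is not independent for that library.

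Few peaks of any gene had a log2 fold as high. In control 1, 13 of 129323 called peaks reached the highest Mdm4 value over input. In control 2 the number was 100 of 153768, and in control 3 it was 22 of 122284. These peaks had −log10 p-values of 34.3, 57.1 and 30.3 in controls 1 to 3, which 125, 83 and 53 called peaks reached. With the knockout IP as comparator, 29, 91 and 51 peaks of controls 1 to 3 reached the highest value of the site. The knockout value of 0.23 was the most frequent log2 fold in the knockout list. It was shared by 37512 called peaks (22.4% of the list), including 9 of the 29 Mdm4 peaks, and it equals the median of that list. The knockout peak thus lay at the middle of its own list.

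The 5′ site was made of adjoining or nearly adjoining called peaks, 6 in control 1 and 4 each in controls 2 and 3, and their values differed along the site. The segment at the 5′ edge had a log2 fold over input of 4.52, 3.86 and 3.44 in controls 1 to 3. The central segment, the one that overlapped the knockout peak most, had 6.06, 5.19 and 5.71. The segment at the 3′ edge had 5.30, 5.32 and 5.34, the closest agreement between controls at the site. Over input the 5′ edge was thus lower than the centre in all 3 controls, and the ranges did not overlap, with means of 3.94 ± 0.54 and 5.65 ± 0.44 (SD, n = 3).

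With the knockout IP as comparator, the 5′ edge had 5.55, 5.14 and 5.17 in controls 1 to 3, and the centre had 4.53, 4.79 and 4.69. The 5′ edge was higher in all 3, with means of 5.28 ± 0.23 and 4.67 ± 0.13 (SD, n = 3). The 3′ edge had 4.59 in control 1 but 5.41 and 5.32 in controls 2 and 3, so its place in the order differed between controls. The segments were compared after their values had been seen, and the centre was chosen by the called knockout peak, which favours a lower fold over the knockout IP there. No test was made of the order.

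Each called Mdm4 peak of a control had identical coordinates in both of its lists, which allows the 2 log2 folds to be subtracted peak by peak. If both lists start from the same IP signal, the log2 fold over input minus that over the knockout IP gives the knockout IP relative to the input of that control. The sources used here do not give their normalisation. The median of this difference over all peaks shared by both lists was −0.28, −0.28 and −0.57 in controls 1 to 3. At the centre of the 5′ site it was 1.52, 0.40 and 1.01, above the list median in each control. At the 5′ edge it was −1.02, −1.28 and −1.72, below the list median in each. The choice of the centre by the called knockout peak favours a higher knockout IP there, and all 3 values use the same knockout IP, so the order is a description of these libraries. Differences at the site lay at simple steps from the list median, at the centre as well as at the edges. Examples were 1 at the 3′ edge in control 1 and −1 at the 5′ edge in control 2. At the centre the steps were 1.81, 0.68 and 1.58 in controls 1 to 3, and 1.58 is the log2 of 3. Ratios of a few reads can give such steps, but the lists give no read counts. Whether the order along the site rests on few reads was not tested.

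**Figure D2:**
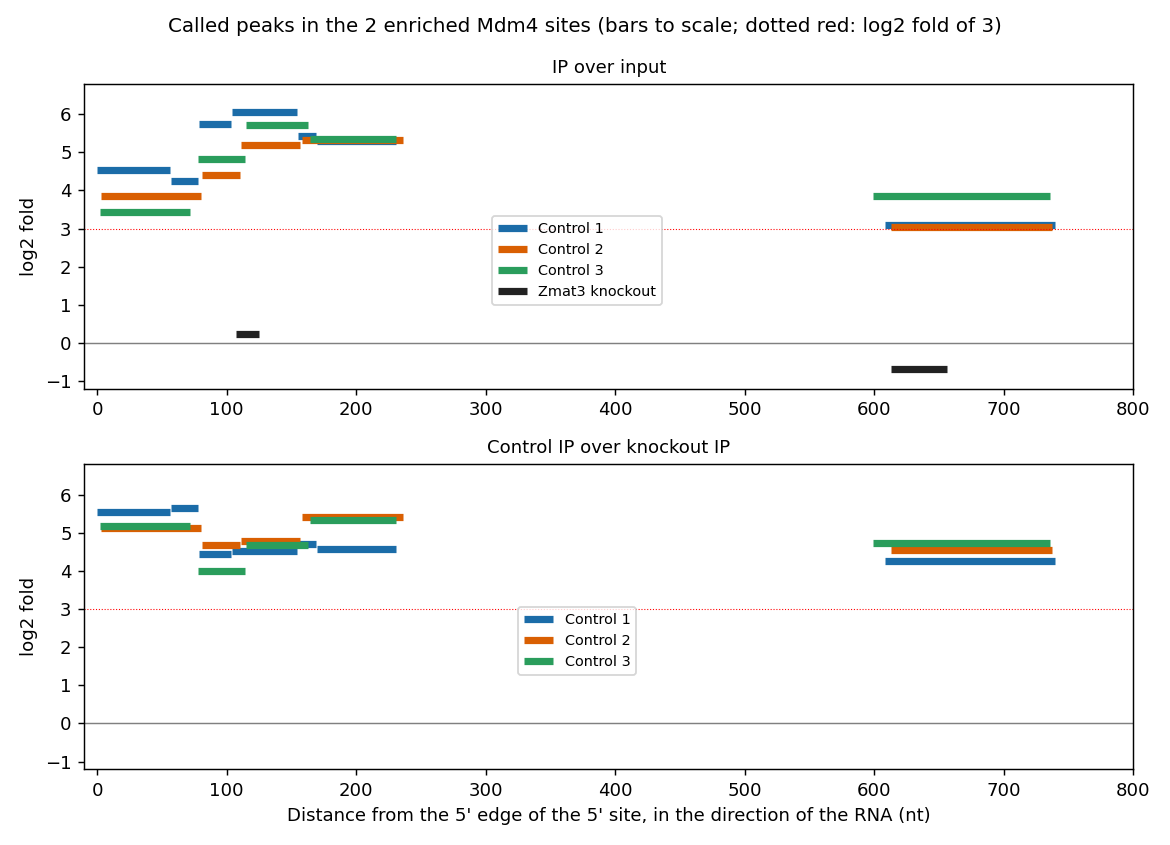
Log2 fold (vertical axis) of each called peak in the 2 enriched Mdm4 sites, drawn to scale as a bar along the RNA in nt from the 5′ edge of the 5′ site (horizontal axis), over input (top) and over the knockout IP (bottom). In the 5′ site the bars of the 5′ edge lie below those of the centre over input and above them over the knockout IP in all 3 controls.

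The other enriched site, called the 3′ site here, spanned 133003891–133004032 (142 nt) and was a single called peak in each library. Its log2 fold over input was 3.09, 3.05 and 3.85 in controls 1, 2 and 3, against −0.67 in the knockout, whose peak spanned 133003975–133004018. The values over the knockout IP were 4.26, 4.54 and 4.73. Every control lay above the knockout. The value over input minus that over the knockout IP was −1.17, −1.49 and −0.88 in controls 1 to 3, beside the same list medians of −0.28, −0.28 and −0.57. Over input the mean was 3.33 ± 0.45, and against the knockout IP it was 4.51 ± 0.24 (SD, n = 3). The control mean over input lay 4.0 above the knockout, again with p = 0.25 in the exact permutation test (two-sided), the smallest possible. This site was singled out by the same folds, so here too the test adds no support.

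Over input, controls 1 and 2 passed the log2 fold of 3 narrowly at the 3′ site. Their −log10 p-values were 30.9 and 38.1, and control 3 had 34.4. Over the knockout IP the −log10 p-values were 45.7, 58.0 and 71.6. In control 1, 3107 called peaks had a log2 fold over input at least as high as the 3′ site, against 2654 in control 2 and 293 in control 3. By the −log10 p-value the site ranked higher, since 134, 129 and 46 called peaks reached its value. At a threshold of 4 on the log2 fold the 3′ site was no longer enriched over input in any control.

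A gap of 362 nt separated the sites, and together they spanned 741 nt, or 1.67% of the gene. Across all genes, 203 regions were enriched over both comparators in at least 2 controls. Of these, 10 regions in 5 genes had another such region within 1000 nt on the same strand. The other 4 genes were Usp34, Cltc, Soat2 and Afdn, with gaps of 78, 25, 33 and 135 nt. Mdm4 had the widest gap of the 5 and was the one pair in which both regions were supported by all 3 controls. No exon annotation was used here, so the position of the sites relative to exons, introns and splice sites was not analysed here, and the sequence of the sites is not shown.

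Apart from the enriched pair, 9 sites were called over input in at least 2 controls, and their log2 folds over input were 1.92 or less. Close to the 3′ end of the gene, the site at 132989924–132989984 was called in all 4 IPs. Its log2 fold over input was −0.97, −1.49 and −0.69 in the controls, beside −0.87 in the knockout. The site at 132991037–132991227, also called in all 4 IPs, had −0.78, −0.60 and −0.61 in controls 1 to 3, beside −0.77 in the knockout. At both sites the knockout lay within the range of the controls. The exact permutation test (two-sided) gave p = 0.75 and 1.0 for the difference.

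Of the other sites, 2 were called in all 3 controls with no called knockout peak. The site at 132991727–132991767 had log2 folds over input of −1.14, −0.44 and −1.28 in controls 1 to 3, and over the knockout IP of 1.01, 0.98 and 0.85. The site at 133007195–133007358 had 0.05, −0.62 and 0.82 over input and 0.11, 1.30 and 1.39 over the knockout IP. In control 2 these values came from different peaks of the site. The peak at 133007268–133007312 gave −0.62 and had 0.47 over the knockout IP. The peak at 133007195–133007232 gave 1.30 and had −0.89 over input. Neither site was enriched over input or over the knockout IP in any control.

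At 3 sites, 2 controls and the knockout had a called peak. The site at 132994514–132994599 had 0.47 and 0.13 over input in controls 1 and 2 and −1.03 in the knockout. The site at 132990182–132990236 had 0.73 and 1.92 in controls 1 and 3 and 1.23 in the knockout, the highest knockout value in Mdm4. The site at 133008707–133008889 had −0.46 and 1.11 in controls 1 and 3 and 0.13 in the knockout. At the last 2 the knockout thus lay between the controls. A further 2 sites, at 132991910–132991994 and 133005376–133005441, were called in controls 1 and 3 without a knockout peak, with log2 folds over input of −0.55 to 0.27. Over the knockout IP the first had 1.47 and 1.00 in controls 1 and 3, and the second had 2.06 and 1.85. The list medians were 1.18 and 1.00.

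**Figure D3:**
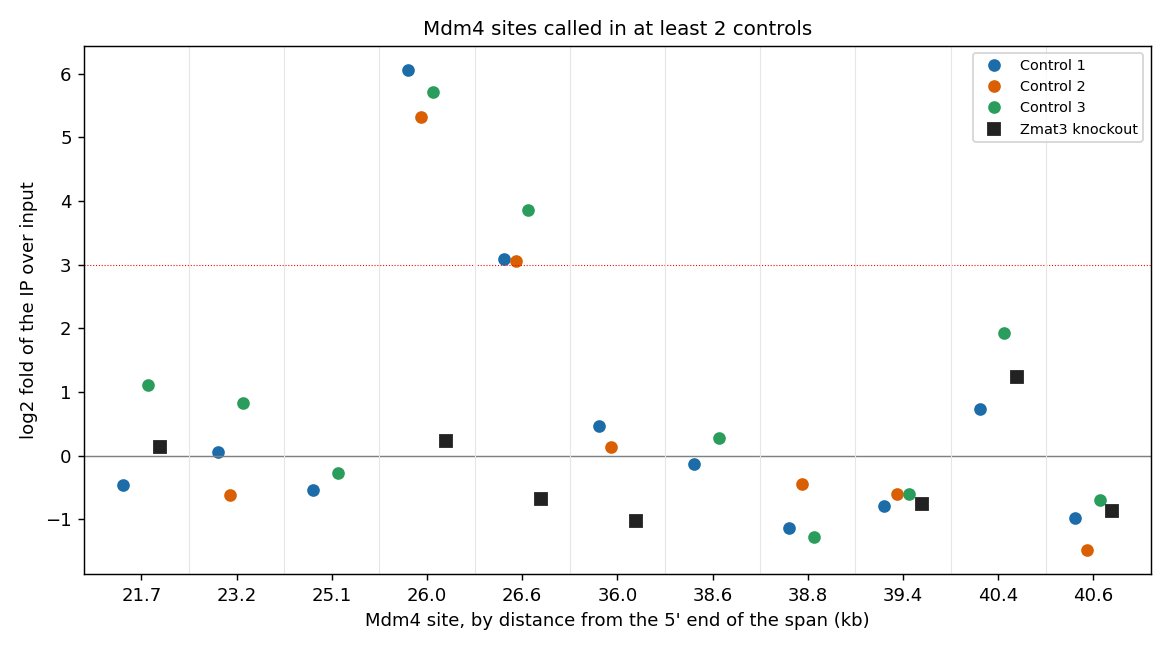
Log2 fold of the IP over input (vertical axis) at the 11 Mdm4 sites called in at least 2 controls, ordered by distance from the 5′ end of the span in kb (horizontal axis); circles are controls 1 to 3 and squares are the knockout. At 26.0 and 26.6 kb all 3 controls lie above the dotted line at 3, and at the other 9 sites all values lie below it.

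The remaining 46 sites were called in 1 control or in the knockout alone, or in 1 control and the knockout. Of these, 25 were called in 1 control with no knockout peak, 6 in control 1, 10 in control 2 and 9 in control 3. Their log2 folds over input ran from −1.40 to 2.82 with a median of 0.12, and over the knockout IP from 0.098 to 2.58 with a median of 1.30. The highest over input were 2 peaks of control 2, at 133001117–133001150 and 133011261–133011289, both at 2.82 with a −log10 p-value of 1.42. Their values over the knockout IP were 1.10 and 2.10. Neither passed the thresholds.

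The knockout alone had a called peak at 16 sites, with log2 folds over its input from −2.77 to 0.97 and a median of −0.45. The share of all sites that were called in the knockout alone, or in controls without the knockout, is not given here. Such counts therefore do not set Mdm4 apart from other genes, and the knockout list was the longest list. A further 5 sites were called in 1 control and the knockout, with control values over input of −0.69 to 1.31 and knockout values of −1.35 to 0.23. The knockout thus had called peaks along much of the gene, 29 in all, although it had none that was enriched. Sites called in 1 library had a median length of 34 nt for the controls and 36 nt for the knockout. Single Mdm4 peaks outside the enriched pair had medians of 38 to 44 nt over input. Merging lengthens sites called in several libraries.

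With the gene divided into 3 parts of equal length, 7 sites lay in the 5′ part, 30 in the middle part and 20 in the 3′ part. The called peak nearest the 3′ end of the span lay 3819 nt from it, and the one nearest the 5′ end lay 5263 nt from it. RefSeq lists a start site of Mdm4 at the 5′ end of the span and another at 133025416. The window from 250 nt before to 50 nt after each start held 0 called peaks. The nearest called peak, at 133025275–133025324 in control 3, lay 92 nt downstream of the inner start site, and it had 0.40 over input and 1.07 over the knockout IP. A pseudogene (Gm29257) and a long non-coding RNA gene (Gm41953) share the 5′ part of the span, and 0 called peaks lay on them on the Mdm4 strand.

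Called Mdm4 peaks outside the pair of enriched sites had values near or below the median of their lists. The pair was set apart by the log2 fold itself, so the remaining peaks are low in part by that choice, and no test was made between them. Peaks outside the pair had a median log2 fold over input of −0.37, −0.32 and 0.30 in controls 1, 2 and 3, beside −0.55 in the knockout. The medians of all called peaks were 0.90, 0.60, 0.60 and 0.23. The difference from the list median was −0.83 ± 0.49 over the controls (SD, n = 3), beside −0.78 for the knockout, so the median of the other Mdm4 peaks lay below the list median in each of the 4 lists. Over the knockout IP their medians were 0.94, 1.04 and 1.03, against list medians of 1.18, 0.88 and 1.00. The mean difference was −0.018 ± 0.21 (SD, n = 3), smaller than the spread between controls. The highest log2 fold over the knockout IP outside the pair was 2.18, 2.52 and 2.58 in controls 1 to 3. The lists give no RNA level. At a single site, the lists over the knockout IP cannot tell more Mdm4 RNA in the control lines from more recovery per RNA molecule. The lists over input set each IP against input RNA. There the controls averaged 5.69 at the 5′ site and 3.33 at the 3′ site, beside 0.23 and −0.67 in the knockout. Whether the Mdm4 RNA level differed between the lines was not tested. The medians of the other called peaks over the knockout IP lay within 0.25 of the list median.

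**Figure D4:**
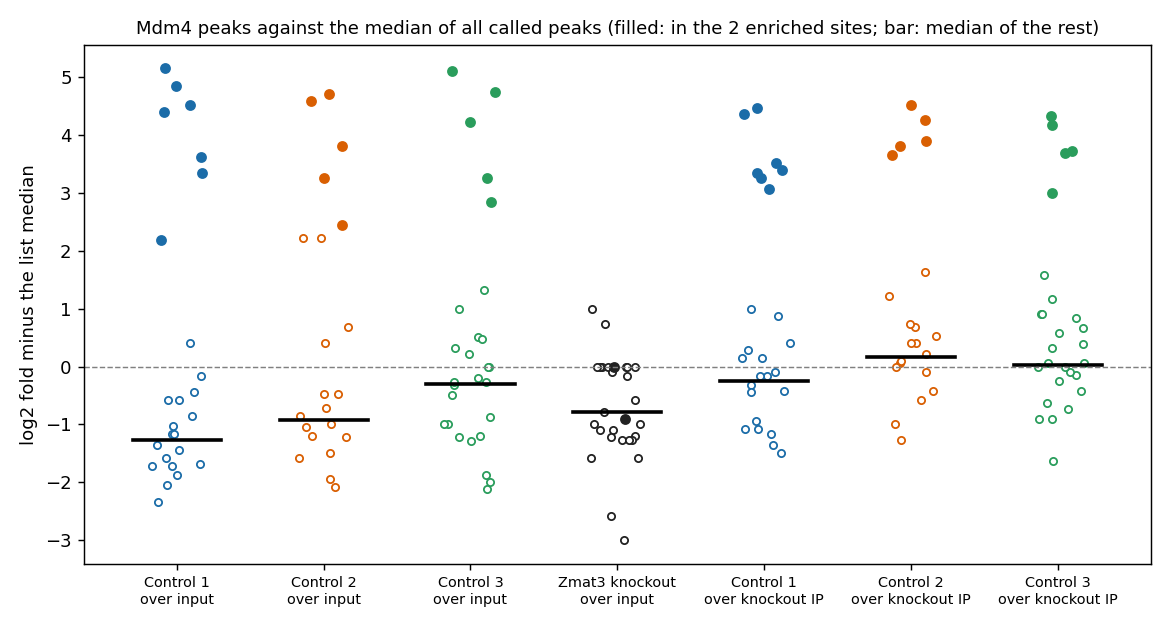
Log2 fold of each called Mdm4 peak minus the median of all called peaks of the same list (vertical axis), by list (horizontal axis), with filled points for the 2 enriched sites, open points for other peaks and a bar at the median of the open points. The bars lie below 0 over input, and over the knockout IP they lie between −0.25 and 0.16.

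Mdm2, the ubiquitin ligase that pairs with Mdm4, had 0, 2 and 1 peaks enriched over input in controls 1, 2 and 3, beside 1 in the knockout. Its called peaks numbered 24, 43, 18 and 52 in these lists. The highest log2 folds over input were 2.64, 4.67 and 4.57 in controls 1 to 3 and 3.02 in the knockout, against 6.06, 5.32, 5.71 and 1.23 for Mdm4. In the controls these Mdm2 peaks lay within 117705240–117705413 on chromosome 10. The Mdm2 knockout peak lay elsewhere, at 117689709–117689744, and is not the knockout value of the control site. The Mdm4 knockout peak, at 132990194–132990236, likewise lay outside the enriched pair. As a background, 1.02%, 1.05%, 0.494% and 0.316% of all called peaks were enriched. Against the knockout IP Mdm2 had 0, 1 and 0 enriched peaks, beside 0.621%, 1.09% and 0.648% of all called peaks. Its highest log2 folds there were 1.18, 4.59 and 0.73 in controls 1 to 3, against 5.66, 5.41 and 5.32 for Mdm4. The Mdm2 value of control 1 came from another peak, at 117710583–117710679.

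Among 38 other regulators of p53 with called peaks in all 3 controls, 2 held a region enriched over both comparators in at least 2 controls (5.26%). The share was 2.36% over all 8208 genes that had called peaks in each control. The 2 genes were Crebbp, which encodes an acetyltransferase of p53, and Atm, which encodes a kinase that signals DNA damage to p53. The Crebbp region (chromosome 16, 4101688–4101784) had log2 folds over input of 3.12, 3.02 and 2.99 and over the knockout IP of 4.99, 4.88 and 4.98 in controls 1 to 3. The Atm region (chromosome 9, 53484292–53484390) had a called peak in controls 2 and 3, at 4.02 and 3.77 over input and 3.30 and 3.75 over the knockout IP. Both rested on 2 controls. Without control 2 neither was left, and without control 1 or control 3 the count was 1.

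The genes most like Mdm4 were sought by the highest log2 fold of a gene in each of the 7 lists, as Euclidean distance over these 7 values. In 7900 genes with a called peak in every list, the median distance from Mdm4 was 8.34. Among the nearest were Gnpat (1.60), Upf3b (1.64), Pogz (2.03) and Usp34 (2.08). Gnpat encodes an enzyme of ether lipid synthesis and Upf3b a factor of nonsense-mediated decay. The highest values over the knockout IP were, for Gnpat, 5.96, 6.18 and 6.11 and, for Upf3b, 5.88, 6.0 and 6.58 in controls 1 to 3. Both had 1 region enriched over both comparators, and so did Pogz. Usp34, which encodes a ubiquitin-specific protease, had 2, as Mdm4 did. The highest knockout value over input was 1.23 in Mdm4 and 0.65 to 2.11 in these 4 genes. These 7 lists come from 4 IP libraries, and the likeness is a description of peak heights.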

How the data were processed

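CLIP peak lists of 4 IP libraries were analysed on mm10, the build in the submitters' processing notes. The lists have no header, and their units were read from the values and layout. The comparator was taken from the names of the lists. Log2 fold values and −log10 p-values were computed by the authors for each peak. The deposited −log10 p-value is capped at 400, and it is 0 wherever the log2 fold is below 0. The sources used here do not give how reads were aligned, peaks called, duplicates handled or peaks without comparator reads treated.

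Genes came from RefSeq (GRCm38.p6). A peak was assigned by midpoint to a protein-coding gene, on the gene's strand where listed (17492 of 21900 genes) and otherwise on either strand. Peaks in several genes were not assigned. Peaks of all lists were merged into sites by overlap of at least 1 nt, and a library's value at a site is its highest log2 fold there. A region joins overlapping control peaks that are enriched over input and also overlap a peak enriched in that control's list over the knockout IP, with at least 2 controls. Named genes were Mdm4, Mdm2, p53 regulators with a region and the 5 genes nearest to Mdm4, of which 1 is not reported here. Members, lists and thresholds were chosen with earlier results of these data known. Nothing says whether the control lines came from separate animals, so SDs measure the spread between these lines. Site merging and region calling were tested on simulated data. Alternatives were other thresholds, overlaps, site values and centring, and leaving out each control. Inputs had no list of their own. Python 3.11.15, pandas and numpy were used.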

Additional observations from a re-analysis of the deposited data

Results flagged for a closer look

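At the Mdm4 3′ site (133003891–133004032) the knockout log2 fold over input was −0.67, whereas controls 1 to 3 had 3.09, 3.05 and 3.85. It is listed because all controls lay above 0 and the knockout below. The difference was not tested beyond the exact permutation test given above, since the knockout had 1 library.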

How the results depend on the processing

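The count of 2 enriched Mdm4 sites, over input, over the knockout IP and over both, stayed at 2 with a log2 fold of at least 2, a −log10 p-value of at least 5, any overlap with the gene span, or without any 1 of the controls (lowest and highest 2). With a log2 fold of at least 4 it was 1 over input and over both. When peaks were joined only at an overlap of 50% of the shorter peak the 5′ site was divided and the count was 4, among 63 sites in all; without 1 control there were 49 to 51 sites. At the 5′ site the length-weighted mean was 4.88 over input and 4.98 over the knockout IP, and the longest peak gave 4.69 and 5.05. The p53 regulators with a region numbered 4 with a log2 fold of at least 2, 0 with at least 4, and 0 to 1 when a control was left out. The sign of the mean difference of other Mdm4 peaks over the knockout IP (−0.018) was not stable, as it was 0.096 without control 1. The log2 fold over input already sets each control IP against input, and with this pairing by replicate number the means were 5.69 and 3.33 (exact sign-flip test over 3 controls, two-sided, p = 0.25 for each, the smallest it can give); this test was added after the data were seen, on sites chosen by the same values, and which input library was used for each list is not recorded. Without read counts no limit set by depth could be computed.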
